A study of Mus musculus with 3 samples.

Results

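The genes of the WNT pathway were examined in maxillary processes of E10.5 embryos that overexpressed *Dlx2*. Members were taken by gene name: the *Wnt* ligands, the *Fzd*, *Lrp*, *Ror* and *Ryk* receptors, the R-spondins with their *Lgr* receptors and the *Znrf3* and *Rnf43* ligases, the secreted inhibitors, the enzymes that process the ligands, and the intracellular effectors and feedback genes. The rule found 66 protein-coding genes among 55401 gene identifiers in the count files. The data were 3 bulk RNA-Seq libraries of 1 genotype, Wnt1cre; Rosa26Dlx2/-, dissected at E10.5 and named OE replicates 1, 2 and 3 here. In these embryos a Cre recombinase under *Wnt1* control removes a stop cassette in front of a CAG-driven *Dlx2* with a 3xFlag tag at *Rosa26*, so that the neural crest and the cells derived from it overexpress *Dlx2* while the cassette stays in place in epithelium, endothelium and blood. Which *Wnt1cre* line was used is not given in the sources used here, nor is the number, litter or sex of the embryos behind each sample. The wild-type arm was not analysed here, and no value below is a difference between genotypes.

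WNT proteins are secreted, lipid-modified ligands that bind Frizzled receptors on nearby cells. With the co-receptors LRP5 and LRP6 they protect β-catenin from a destruction complex built on AXIN and APC, and β-catenin then activates genes together with TCF/LEF factors. With ROR2 or RYK they act on cell polarity and movement without β-catenin. In the early face, WNT signalling between the surface epithelium and the neural crest mesenchyme is known to be needed for outgrowth and fusion of the facial processes. Feedback genes such as *Axin2*, *Nkd1* and *Notum* are switched on by the pathway and restrain it.

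Counts on genes were between 35351031 and 40057435 per library, and levels are given as counts per 1000000 counts on genes after TMM scaling (CPM). Levels of different genes were compared only as CPM per kilobase of exonic length (CPM/kb). *Dlx2* was at 235, 201 and 183 CPM in replicates 1, 2 and 3. Markers set the libraries apart. Erythroid genes summed to 2132, 3990 and 4916 CPM in replicates 1, 2 and 3. A list of neuron genes summed to 377, 27.4 and 38.6 CPM, a list of glia genes to 98.2, 25.2 and 26.4, a list of eye and forebrain genes to 25.03, 158 and 146, and a list of pigment cell genes to 6.84, 38.7 and 164 CPM. Mesenchyme genes summed to between 1925 and 2202 CPM and epithelium genes to between 328 and 528 CPM, so both tissues of the maxillary process were represented in every library. *Xist*, the RNA of the inactive X chromosome, was at 671 CPM in replicate 1 and under 1 CPM in the others, while 4 genes of the Y chromosome summed to 0 counts in replicate 1. In bulk tissue, fewer cells of a type and less RNA per cell cannot be told apart.

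Most WNT genes were transcribed at this stage. At least 10 counts were found in every library for 57 of the 66 members (86.4%), against 61.3% of all protein-coding genes, and 54 members had a mean of at least 1 CPM. The 9 members below 10 counts in some library were *Wnt1*, *Wnt2*, *Wnt3a*, *Wnt7a*, *Wnt8a*, *Wnt8b*, *Wnt16*, *Sfrp4* and *Sfrp5*. Only *Wnt8a*, a ligand of the gastrulating embryo, never exceeded 3 counts, with 1 count in replicate 1 and 0 in the others. A count of 0 still allows up to 0.0843 CPM in replicate 2, for counting error only. The order of members by CPM/kb was much alike between libraries, with Spearman's rho over the 66 genes of 0.976 for replicates 1 and 2, 0.951 for replicates 2 and 3 and 0.906 for replicates 1 and 3. These coefficients run across genes of shared libraries and carry no p-value.

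**Figure D1:**
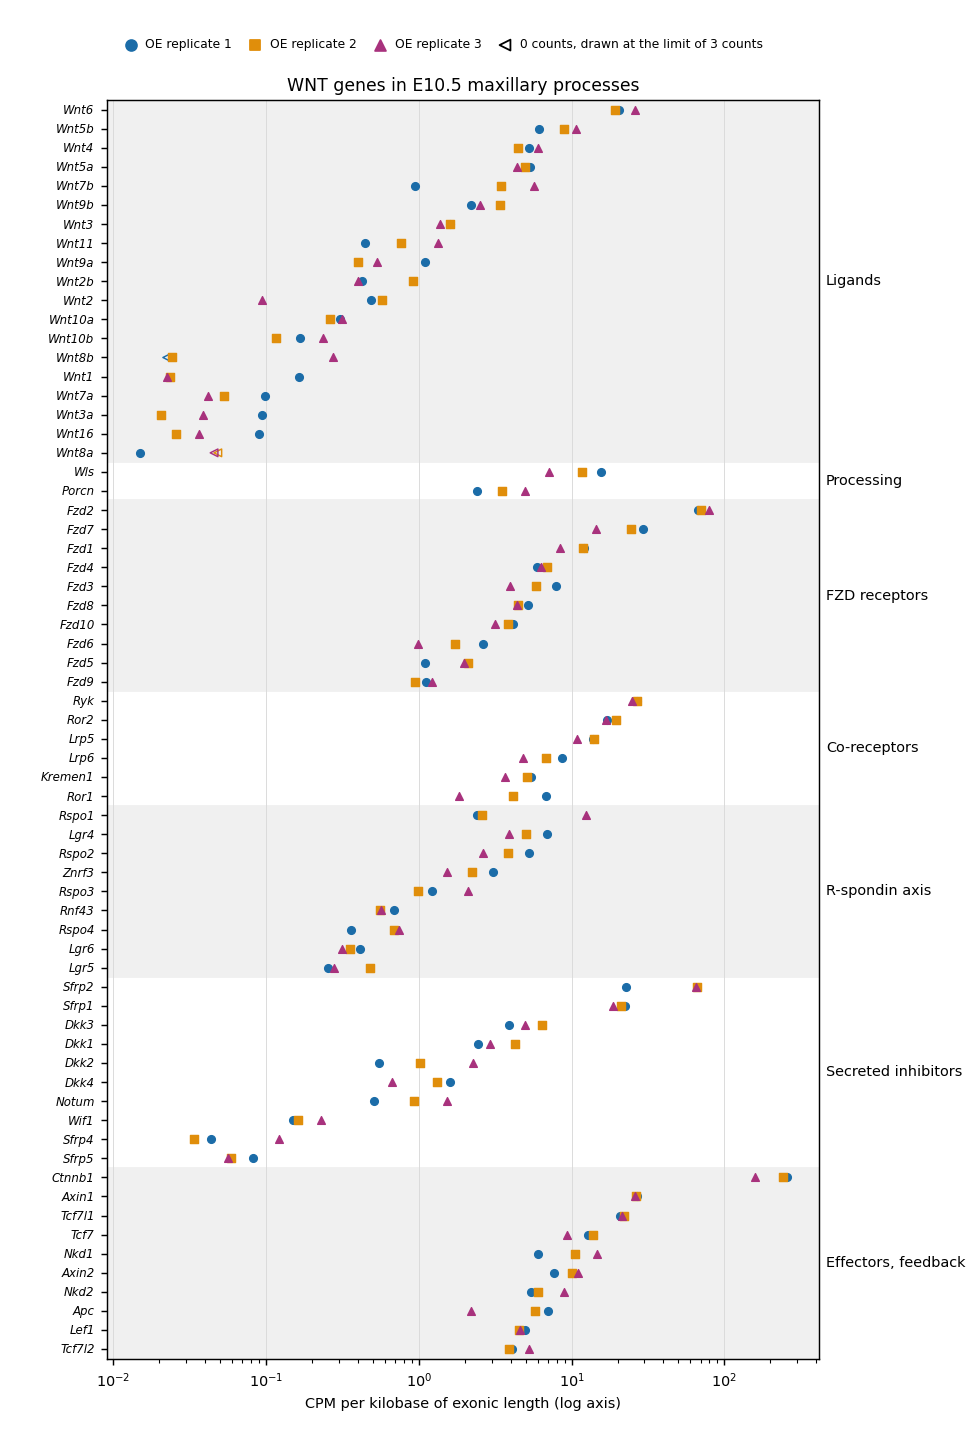
Level of each of the 66 WNT genes in the 3 OE libraries, in CPM per kilobase of exonic length on a log axis, grouped by role and ordered by mean. *Ctnnb1* (mean 220), *Fzd2* (72.1) and *Sfrp2* (51.5) had the highest means per length, although *Sfrp2* lay below *Fzd7*, *Axin1* and *Ryk* in replicate 1, while 7 ligands lay below 0.2. Open triangles mark 0 counts, drawn at the level that 3 counts would have, which is why a single count of *Wnt8a* in replicate 1 lies to their left.

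Among the ligands, *Wnt6* was the most abundant per length and headed the order in every library. *Wnt6* (ENSMUSG00000033227, chromosome 1 of mm10, 74771892 to 74785322, plus strand), a ligand known from surface epithelium, was at 45.1, 42.3 and 57.5 CPM in replicates 1, 2 and 3, or 22.05 ± 3.68 CPM/kb (SD, n = 3). This was 42.7% of the summed level of all 19 ligands. The summed level was 45.4, 49.3 and 60.2 CPM/kb in the 3 libraries (51.6 ± 7.67, SD, n = 3). *Wnt5b* came next at 8.56 ± 2.26 CPM/kb, and its lowest library lay above the highest of *Wnt4*.

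*Wnt4* (5.25 ± 0.808 CPM/kb), *Wnt5a* (4.91 ± 0.459), *Wnt7b* (3.35 ± 2.35) and *Wnt9b* (2.72 ± 0.631) followed, each overlapping its neighbour in this order. *Wnt5a* encodes the best known ligand of the polarity branch and is a gene of facial mesenchyme, and *Wnt9b*, an epithelial ligand, is required for lip fusion. *Wnt3*, which also bears on lip fusion, had a lower mean than these, 1.53 ± 0.129 CPM/kb, and did not overlap *Wnt9b*. Of the 18 neighbouring pairs in the order of ligands, 12 overlapped between libraries, and 3 ligands, *Wnt6*, *Wnt5b* and *Wnt10b*, held the same place in each library.

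*Wnt11*, *Wnt9a*, *Wnt2b*, *Wnt2* and *Wnt10a* lay between 0.293 and 0.847 CPM/kb. The lowest ligands were *Wnt10b*, *Wnt8b*, *Wnt1*, *Wnt7a*, *Wnt3a*, *Wnt16* and *Wnt8a*, with means from 0.00495 to 0.172 CPM/kb. *Wnt1*, the gene whose control elements drive the Cre in these embryos, had 15, 2 and 2 counts. *Wnt3a*, which like *Wnt1* marks the dorsal neural tube, had 10, 2 and 4 counts. Both were highest in replicate 1, the library with the most neuron and glia RNA. A list of 7 neural roof and midbrain genes summed to 15.9, 29.4 and 34.2 CPM and was lowest there. Much of this rests on *Pax2* (0.492, 13.5 and 15.4 CPM). *Lmx1a* (5.49, 3.15 and 4.54 CPM) and *En2* (0.959, 0.702 and 0.451 CPM) were highest in replicate 1 and the other 5 in replicate 3. The part of these tissues in the counts was not tested. A *Wnt1* count does not separate the endogenous gene from any *Wnt1* sequence in the Cre transgene.

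Ligand genes that lie side by side in the genome were transcribed at different levels. On chromosome 1, *Wnt10a* (74791516 to 74804179, plus strand) starts 6193 bp after the end of *Wnt6*, and *Wnt6* was 67.6, 73.8 and 84.1 times higher per length in replicates 1, 2 and 3. On chromosome 11, *Wnt9a* and *Wnt3a* are 16175 bp apart on opposite strands. *Wnt9a* was at 0.679 ± 0.376 CPM/kb against 0.0509 ± 0.0383 for *Wnt3a* (SD, n = 3). *Wnt9b* and *Wnt3*, 24328 bp apart on the same chromosome, were closer in level, with *Wnt9b* 1.37, 2.14 and 1.83 times higher. *Wnt10b* and *Wnt1*, 11706 bp apart on chromosome 15, both had means below 0.2 CPM/kb. All pairs kept their order in each library, although *Wnt10b* and *Wnt1* were nearly level in replicate 1 with 22 and 15 counts.

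Both genes that prepare ligands for release were present. *Wls*, which carries WNT proteins to the cell surface, was at 137, 103 and 63.0 CPM in replicates 1, 2 and 3 (101 ± 37.1, SD, n = 3). *Porcn*, the enzyme that attaches their lipid, was at 7.23, 10.6 and 14.9 CPM (10.9 ± 3.87, SD, n = 3). The 2 genes were ordered oppositely over the libraries. *Porcn* is on the X chromosome and was lowest in the library with *Xist*, while *Wls* is among the long transcripts described below, and the part of neither in this order was tested.

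*Fzd2* dominated the receptors. It was at 247, 256 and 289 CPM in replicates 1, 2 and 3, or 72.1 ± 6.08 CPM/kb (SD, n = 3), which was 55.1% of the summed level of the 10 *Fzd* genes. *Fzd7* followed at 22.8 ± 7.56 CPM/kb and *Fzd1* at 10.8 ± 2.05. These 3 genes encode closely related Frizzleds and together made up 80.7% of the sum. The sum itself varied little, with 137, 132 and 124 CPM/kb in the 3 libraries.

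All other *Fzd* genes were detected in every library, from 6.39 ± 0.443 CPM/kb for *Fzd4* through *Fzd3*, *Fzd8*, *Fzd10*, *Fzd6* and *Fzd5* to 1.10 ± 0.143 for *Fzd9*. The libraries differed in several of them. *Fzd7* was at 133, 111 and 66.0 CPM, *Fzd6* at 12.6, 8.32 and 4.78, and *Fzd3* at 101, 74.9 and 50.4, all lowest in replicate 3. *Fzd5*, an eye and forebrain receptor, was at 7.59, 14.5 and 13.6 CPM and so lowest in replicate 1, as was the eye and forebrain marker list. The part of that tissue was not tested. Of the exonic bases of *Fzd5*, 17.8% are shared with a transcript on the opposite strand, where reads could be left unassigned.

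Co-receptors were abundant and, apart from *Ror1*, within 2-fold of each other between libraries. *Ryk*, a receptor of the polarity branch, was at 122, 122 and 113 CPM in replicates 1, 2 and 3, or 26.2 ± 1.20 CPM/kb (SD, n = 3). *Ror2*, the receptor of WNT5A in the skeleton and face, was at 72.2, 83.1 and 71.6 CPM. *Lrp5* was at 135, 136 and 105 CPM and *Lrp6* at 118, 92.5 and 65.9. Per length, *Lrp5* (12.9 ± 1.76 CPM/kb) lay above *Lrp6* (6.73 ± 1.89) without overlap. *Kremen1*, which removes LRP6 from the surface when bound to DKK1, was at 42.1, 39.4 and 28.2 CPM. *Ror1* spread most in this group, with 39.2, 23.9 and 10.6 CPM, and its range was 3.70-fold.

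R-spondins strengthen WNT signalling by using LGR receptors to clear the ligases ZNRF3 and RNF43, which otherwise remove Frizzleds. *Rspo2*, the R-spondin known from limb and face outgrowth, was at 26.8, 19.7 and 13.4 CPM in replicates 1, 2 and 3. *Rspo1* was at 4.64, 5.06 and 24.3 CPM, so that replicate 3 alone was high and the mean of 11.3 ± 11.2 CPM (SD, n = 3) was carried by it. *Rspo3* (13.1% of exonic bases shared with an antisense transcript) was at 3.78, 3.06 and 6.45 CPM and *Rspo4* at 0.855, 1.63 and 1.75. *Rspo2* was therefore the highest R-spondin per length in replicates 1 and 2 and *Rspo1* in replicate 3. *Lgr4*, at 40.4, 29.8 and 23.1 CPM, was the most abundant of the LGR genes per length (5.28 ± 1.49 CPM/kb). *Lgr5* and *Lgr6*, both stem cell markers of other epithelia, had means of 0.337 ± 0.124 and 0.360 ± 0.0496 CPM/kb. *Znrf3* had the same order of libraries as *Lgr4*, at 24.0, 17.6 and 12.0 CPM, and *Rnf43* was at 4.53, 3.65 and 3.72 CPM. Per length, *Rnf43* (0.605 ± 0.0750 CPM/kb) lay below *Znrf3* (2.26 ± 0.761).

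The secreted inhibitors were mostly *Sfrp* transcripts. SFRP proteins bind WNT ligands outside the cell, and DKK1 blocks LRP5 and LRP6. *Sfrp2* was at 49.1, 143 and 141 CPM in replicates 1, 2 and 3, and *Sfrp1* at 98.6, 92.5 and 81.3. *Sfrp2* was thus about as high as *Sfrp1* per length in replicate 1 and over 3 times higher in replicates 2 and 3. Of the exonic bases of *Sfrp2*, 16.1% are shared with an antisense transcript, where reads could be left unassigned. Together with *Dkk3* (5.07 ± 1.24 CPM/kb, SD, n = 3), placed in this group by its name, *Sfrp2* and *Sfrp1* made up 91.7% of the summed level of the 10 genes. The sum was 54.6, 102 and 96.7 CPM/kb, and *Sfrp2* set its spread. *Sfrp2* was lowest in the library where the eye and forebrain markers were lowest (25.03 against 158 and 146 CPM for the list), and the part of that tissue was not tested.

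The other inhibitors had means of at most 3.22 CPM/kb. *Dkk1*, which is required for head formation, was at 5.96, 10.4 and 7.09 CPM. *Dkk2* was at 2.05, 3.79 and 8.36 CPM, highest in replicate 3, and *Dkk4* at 2.10, 1.74 and 0.876, lowest there. *Notum*, the enzyme that strips the lipid from WNT ligands, was at 1.22, 2.25 and 3.69 CPM, and 38.1% of its exonic bases are shared with antisense transcripts, where reads could be left unassigned. *Wif1* was at 0.438 ± 0.105 CPM, *Sfrp4* at 0.275 ± 0.199 and *Sfrp5* at 0.125 ± 0.0268 (SD, n = 3).

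Inside the cell, *Ctnnb1* exceeded every other member. *Ctnnb1* (ENSMUSG00000006932, chromosome 9 of mm10, 120929216 to 120960507, plus strand) encodes β-catenin, which also links cadherins to actin, and was at 1331, 1263 and 829 CPM in replicates 1, 2 and 3. Of its exonic bases, 15.1% are shared with other genes, chiefly *Ulk4* on the opposite strand. The destruction complex scaffold *Axin1* had the smallest range of the members tested, 1.04-fold, at 103, 102 and 99.3 CPM. Its counts did not differ beyond counting noise (chi-square test across libraries, Benjamini-Hochberg adjusted p = 0.286). *Apc*, the other scaffold, was at 113, 93.4 and 35.6 CPM, a range of 3.19-fold.

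All 4 TCF/LEF genes were transcribed. *Tcf7l1*, mainly a repressor, was the highest at 81.6, 86.6 and 84.3 CPM (21.4 ± 0.638 CPM/kb, SD, n = 3), and *Tcf7* was at 33.7, 36.1 and 24.6 CPM (12.0 ± 2.32 CPM/kb). *Lef1* and *Tcf7l2* were lower per length, at 4.70 ± 0.215 and 4.42 ± 0.733 CPM/kb, and overlapped. Of the exonic bases of *Lef1*, 13.7% are shared with an antisense transcript, where reads could be left unassigned. *Tcf7l1* and *Lef1* differed by under 1.1-fold between libraries, and *Tcf7l2* was highest in replicate 3 at 46.1 CPM against 36.0 and 34.2.

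The feedback genes differed in which library was highest. *Nkd1*, which binds Dishevelled, was at 27.4, 47.9 and 66.8 CPM in replicates 1, 2 and 3, a range of 2.44-fold. *Axin2*, the most used readout of β-catenin signalling, was at 42.6, 55.1 and 60.7 CPM. *Nkd2* was at 26.2, 29.1 and 42.8 CPM. With *Notum*, these 4 genes were lowest in replicate 1 and highest in replicate 3. The mesenchyme, erythroid, pigment cell and neural roof and midbrain lists had that order too. The neuron, glia, epithelium and muscle lists were highest in replicate 1, and the part of tissues in the feedback genes was not tested. Among those genes, the order was not shared by all. *Znrf3* had the opposite order, and *Lef1* (43.4, 39.9 and 40.5 CPM) and *Rnf43* were highest in replicate 1. These 3 are the longest of the 7 (6558 to 8788 bp), and the part of length in these orders was not tested. The log2 ratio of each library to the others was also set beside its median over genes of like length. *Axin2* (-0.44 against 0.14 in replicate 1 and 0.32 against -0.21 in replicate 3), *Nkd1* (-1.03 against 0.02 and 0.87 against -0.07), *Nkd2* (-0.42 against 0.07 and 0.62 against -0.11) and *Notum* (-0.98 against -0.20 and 0.95 against 0.25) were low in replicate 1 and high in replicate 3 on this scale too. *Lef1* was relatively low in replicate 1 (0.11 against 0.32) and high in replicate 3 (-0.04 against -0.47), and *Rnf43* was highest in replicate 3 (-0.12 against -0.32). *Znrf3* kept its order (0.71 against 0.28 in replicate 1 and -0.75 against -0.38 in replicate 3). *Rnf43* did not differ beyond counting noise (chi-square test, Benjamini-Hochberg adjusted p = 0.117), and *Lef1* was at the threshold (adjusted p = 0.0471 in the same test).

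**Figure D2:**
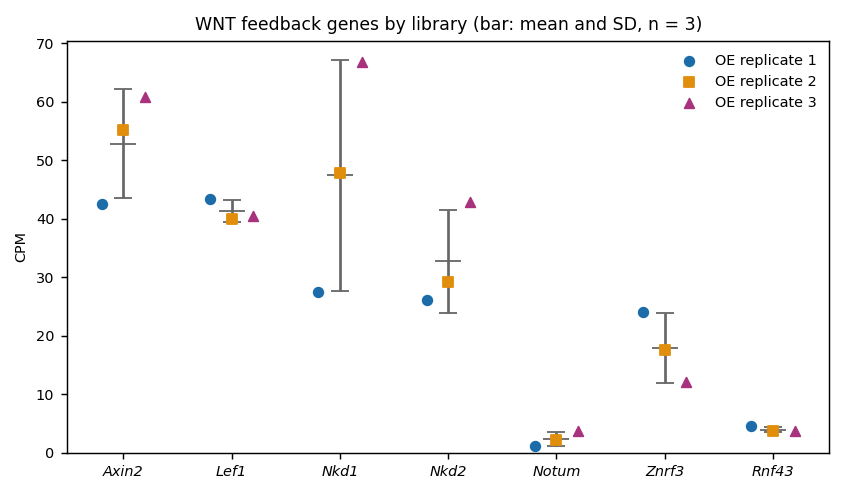
CPM of 7 WNT feedback genes in the 3 OE libraries, with the mean and SD (n = 3) as a bar. *Axin2*, *Nkd1*, *Nkd2* and *Notum* are lowest in replicate 1 and highest in replicate 3 (*Nkd1* 27.4 and 66.8 CPM), *Znrf3* is highest in replicate 1 (24.0 against 12.0 in replicate 3) and *Lef1* lies between 39.9 and 43.4.

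The sequence before the start of *Axin2* and *Nkd1* is shown because these feedback genes share the order of the libraries, beside *Wnt11* and *Wnt8b*, ligands of that same order (low in replicate 1, high in replicate 3) with a match. Each run is the 250 bases before the most upstream RefSeq start in GRCm38.p6, 5′ to 3′ on the strand of the gene. Capitals mark the letters CTTTGAA or CTTTGAT or CTTTGTA or CTTTGTT, which TCF/LEF factors recognise, or TAATTA, which homeodomain proteins such as DLX2 recognise, on either strand. The positions are chr11:108920099-108920348 for *Axin2*, chr8:88527383-88527632 for *Nkd1*, chr7:98834862-98835111 for *Wnt11* and chr19:44493222-44493471 for *Wnt8b*, all on the plus strand. The RefSeq start of *Nkd1* lies inside the gene as GENCODE M21 annotates it (88521354 to 88594884 on chromosome 8), so that this window is before an internal start, while the other windows end 1 base before the annotated gene.
Axin2: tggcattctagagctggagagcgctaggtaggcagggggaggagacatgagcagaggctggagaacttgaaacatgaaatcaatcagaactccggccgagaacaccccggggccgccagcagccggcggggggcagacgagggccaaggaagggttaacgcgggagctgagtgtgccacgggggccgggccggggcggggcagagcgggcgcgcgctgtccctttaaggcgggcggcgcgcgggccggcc
Nkd1: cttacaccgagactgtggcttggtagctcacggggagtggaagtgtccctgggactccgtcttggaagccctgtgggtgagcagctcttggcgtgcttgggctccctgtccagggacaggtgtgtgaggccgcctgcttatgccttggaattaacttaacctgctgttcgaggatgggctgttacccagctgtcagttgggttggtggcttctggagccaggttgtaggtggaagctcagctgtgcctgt
Wnt11: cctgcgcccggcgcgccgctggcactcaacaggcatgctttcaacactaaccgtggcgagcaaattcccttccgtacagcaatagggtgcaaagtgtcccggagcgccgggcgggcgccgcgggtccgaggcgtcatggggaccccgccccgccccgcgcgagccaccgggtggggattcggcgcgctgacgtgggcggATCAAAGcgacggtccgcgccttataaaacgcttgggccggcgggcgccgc
Wnt8b: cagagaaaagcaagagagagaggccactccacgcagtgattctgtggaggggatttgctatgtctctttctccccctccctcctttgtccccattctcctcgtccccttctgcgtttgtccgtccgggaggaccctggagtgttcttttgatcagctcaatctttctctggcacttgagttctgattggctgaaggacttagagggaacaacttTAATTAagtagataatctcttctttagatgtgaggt

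*Wnt11* held the TCF/LEF letters on the minus strand, 51 to 45 bases before its start, and *Wnt8b* held TAATTA 36 to 31 bases before its start. Neither set of letters was in the windows of *Axin2* and *Nkd1*, nor in those of *Dkk2*, *Nkd2*, *Rspo1* and *Rspo4*, which had the same order of libraries. Of the 66 members, 43 had a start in the RefSeq table. Of these 43, TCF/LEF letters were in 3 (6.98%), *Dkk1*, *Fzd7* and *Wnt11*, against 14.8% of all 32851 starts, and TAATTA was in 1 (2.33%) against 4.84%. Members were read at their most upstream start only, while the shares of all starts take in every start, so the sets are unlike. All of these are matches of letters in a short window and say nothing about binding elsewhere.

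How far the replicates spread was measured over the 60 members whose mean count reached 10. In 51 of these (85.0%) the 3 counts differed beyond counting noise, against 81.5% of all 17115 genes tested (chi-square test over the 3 libraries, significant at 0.05 after adjustment by Benjamini-Hochberg); such a test compares libraries, not conditions. In 23 of the 60 members (38.3%) the highest CPM was at least 2 times the lowest, against 34.8% of all these genes. Both shares were close to those of all genes. Besides *Axin1* and *Rnf43*, the members within counting noise were *Fzd9*, *Lgr6*, *Tcf7l1*, *Wif1*, *Wnt3*, *Wnt10a* and *Wnt10b*. *Fzd3* and *Znrf3* lay just under the 2-fold limit, both at 1.997.

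Of the 60 members, 12 (20%) were past 2-fold and highest in replicate 3, against 17.5% of all genes tested. The share highest in replicate 1 was 8 of 60 (13.3%) against 13.8%, and in replicate 2 it was 3 of 60 (5.00%) against 3.55%. Those highest in replicate 3 were *Dkk2*, *Nkd1*, *Notum*, *Porcn*, *Rspo1*, *Rspo3*, *Rspo4*, *Sfrp4*, *Wnt7b*, *Wnt8b*, *Wnt10b* and *Wnt11*. Those highest in replicate 1 were *Apc*, *Dkk4*, *Fzd6*, *Fzd7*, *Ror1*, *Rspo2*, *Wls* and *Wnt9a*, and *Sfrp2*, *Wnt2* and *Wnt2b* were highest in replicate 2. Over 4 scalings the order of the libraries was the same for these members except *Sfrp2*, nearly level in replicates 2 and 3, and *Wnt2b*, nearly level in replicates 1 and 3. Replicate 3 carried much of this spread, since without it 4 members were past 2-fold (7.24% of all genes), and without replicate 1 there were 10 (18.3%).

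**Figure D3:**
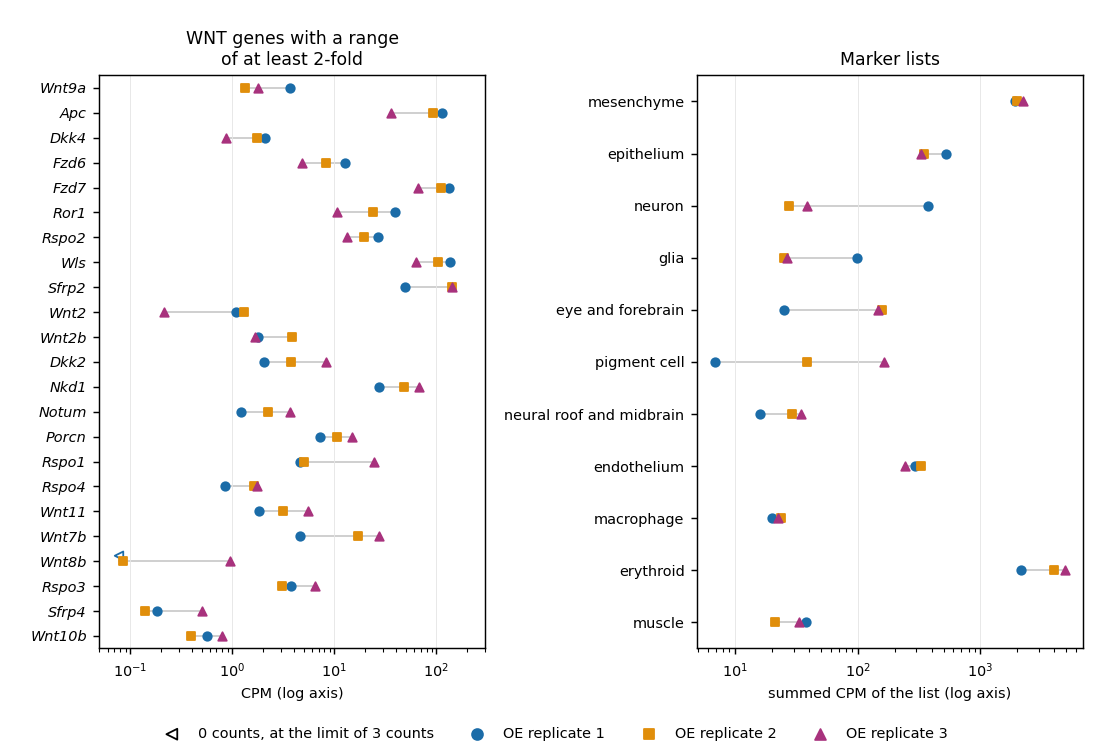
Left, CPM on a log axis of the 23 WNT genes whose highest library was at least 2 times the lowest, ordered by the library in which they were highest; the open triangle is 0 counts of *Wnt8b*, drawn at the level of 3 counts. Right, summed CPM of the marker lists in the same libraries on a log axis, where neuron and glia genes stood highest in replicate 1 (377 and 98.2 CPM), eye and forebrain genes lowest there (25.03 CPM) and pigment cell genes highest in replicate 3 (164 CPM).

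*Wnt7b* had the largest range among the 6 ligands with a mean of at least 10 CPM. It was at 4.64, 16.9 and 27.6 CPM in replicates 1, 2 and 3, a range of 5.96-fold. *Wnt8b*, a ligand of the forebrain, had 0, 3 and 36 counts. It was at 0.956 CPM in replicate 3, at least 12.3-fold higher than the 0.0777 CPM that 3 counts would give in replicate 1, and it entered these comparisons through replicate 3 only. So did *Sfrp4*, with 7, 5 and 19 counts. *Wnt2b*, known from the retinal margin and pigment epithelium, was highest in replicate 2 at 3.85 CPM against 1.79 and 1.67. All members of the pigment cell list except *Mlana* were highest in replicate 3, with *Pmel* at 0.363, 5.98 and 71.8 CPM, and *Wnt7b*, *Wnt8b*, *Rspo1* and *Dkk2* were highest there too. The part of that tissue in these differences was not tested.

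*Wnt2* went the other way, with 42, 46 and 8 counts, and *Wnt9a* was highest in replicate 1 with 3.68 CPM against 1.32 and 1.78. *Dkk4* and *Fzd6* were highest in replicate 1, where the epithelium list was also highest, at 528 CPM against 348 and 328. Within that list 8 of 12 genes were highest in replicate 1 and 4 in replicate 3. *Wnt6* and *Wnt9b*, called epithelial above, were not highest in replicate 1, at 45.1, 42.3 and 57.5 CPM and at 9.95, 15.5 and 11.4 CPM. The part of epithelium in these WNT levels was not tested.

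Part of the difference of replicate 3 moved with transcript length. For genes over 8000 bp of exonic length, the median log2 ratio of replicate 3 against the mean of the others was -0.53 over all 2600 genes and -0.51 over the 8 WNT members of that length. The ratio is on log2 of CPM plus 0.5. Of these 8, *Apc*, *Fzd3*, *Lef1*, *Lgr5*, *Lrp5*, *Lrp6* and *Wls* were below 0 and *Tcf7l2* was above. Between 2000 and 8000 bp the median was -0.05 over all genes and -0.03 over 50 members.

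Members lay at different distances from this trend. *Apc*, the longest at 16116 bp, had a ratio of -1.52 against a median of -0.60 for genes of like length, and *Ror1* had -1.49 against -0.23. *Lrp6* (-0.66 against -0.60) and *Fzd3* (-0.78 against -0.60) lay close to it. *Rspo1*, a short transcript of 1938 bp, had a ratio of 2.21 against 0.29, and *Wnt7b* had 1.57 against -0.11. With 0.5 CPM added to each level, 16 of the 23 members stayed past 2-fold (23.0% of all genes). When the median of each length bin was taken off as well, 13 members were past it (17.0% of all genes). Against the 16, this step took out *Apc*, *Fzd7*, *Notum*, *Wls* and *Wnt2b* and brought in *Dkk4* and *Fzd5*. *Sfrp2*, *Nkd1*, *Wnt7b*, *Wnt11*, *Rspo1*, *Ror1* and *Fzd6* were among the 11 members in both.

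**Figure D4:**
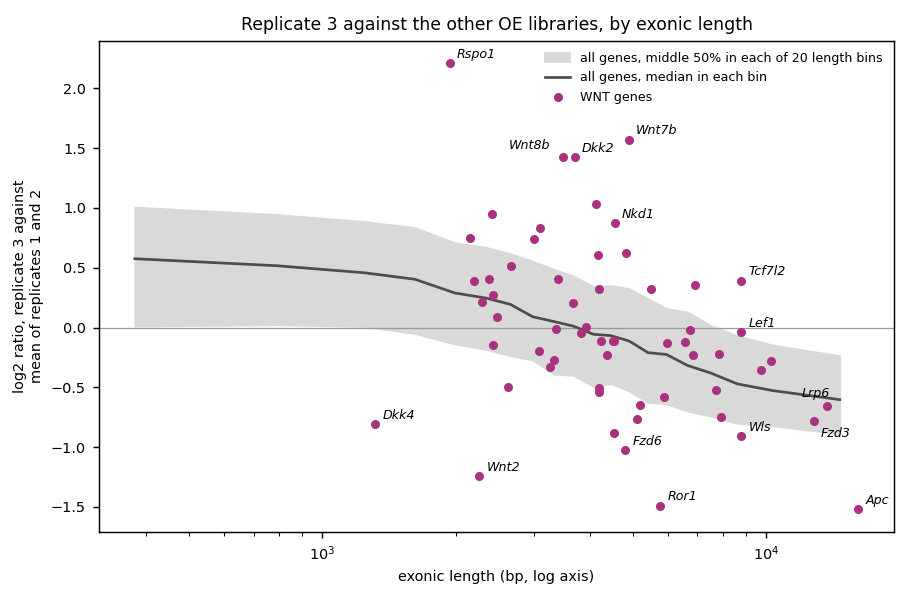
Log2 ratio of replicate 3 against the mean of replicates 1 and 2 (CPM plus 0.5) over exonic length on a log axis, for 60 WNT genes (points). The line is the median and the band the middle 50% of all genes in 20 length bins, and the line falls from 0.58 in the shortest to -0.60 in the longest genes. *Rspo1* and *Wnt7b* lie above the band and *Apc*, *Ror1* and *Wnt2* below it.

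Other genes of the pathway were read from lists of 63 genes outside the rule. In 62 of these at least 10 counts were found in every library, the exception being *Ndp*, the Norrin ligand of FZD4. Counts differed beyond counting noise in 59 of the 63, against 81.5% of all genes tested (chi-square test, adjusted as above). A range of at least 2-fold was found in 18 of the 63, against 34.8% of all genes. Of these, 12 were highest in replicate 1 (13.8% of all genes tested), 2 in replicate 2 (3.55%) and 4 in replicate 3 (17.5%). Several of the 12 are over 8000 bp long, namely *Tnik*, *Csnk1g1*, *Tnks*, *Tnks2*, *Celsr1*, *Celsr3* and *Prickle2*. Over all genes of that length, the log2 ratio of replicate 1 to the others had its median at 0.38 and that of replicate 3 at -0.53, and the part of length in this count was not tested.

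Per length, the highest of 22 cytoplasmic genes was *Dact3*, a Dishevelled antagonist, at 68.4 ± 24.3 CPM/kb (SD, n = 3), and the lowest mean was that of *Apc2* at 0.525 ± 0.154, with *Tnik* below it in replicate 3. Of 14 nuclear genes, the corepressor *Ctbp1* had the highest mean at 96.1 ± 5.41 CPM/kb, with *Tle5* above it in replicate 3. *Sp8*, a transcription factor of limb and face outgrowth, had the lowest mean at 0.484 ± 0.332, which rests on replicate 3, since *Sp5* was lower in replicates 1 and 2. *Sp8* was at 3.39, 2.73 and 0.504 CPM in replicates 1, 2 and 3 and so lowest in replicate 3. *Tle5*, listed as *Aes* in the annotation, was at 97.2, 184 and 473 CPM and highest there.

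Of 13 planar polarity genes, *Scrib* had the highest mean at 44.1 ± 7.95 CPM/kb (SD, n = 3), with *Ptk7* above it in replicate 1, and *Celsr3* was lowest at 0.255 ± 0.272. *Celsr3*, which neurons use in axon guidance, was at 6.87, 1.15 and 1.22 CPM and thus highest where the neuron list was highest, and the part of neurons was not tested. Of 14 other extracellular genes, *Gpc3*, a glypican at the cell surface, was highest at 244 ± 2.87 CPM/kb and differed by 1.02-fold between libraries. *Ndp* had the lowest mean at 0.345 ± 0.320 CPM/kb, with 2, 46 and 25 counts, which rests on replicate 1, since *Sost* was lower in replicates 2 and 3. *Ptk7* (208, 204 and 192 CPM) and *Vangl2* (84.7, 81.3 and 74.2 CPM), which act with ROR2 in polarity, had ranges of 1.09-fold and 1.14-fold.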

How the data were processed

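Bulk RNA-Seq of maxillary processes from 3 OE samples was used. The submitters' processing notes name STAR 2.7.3a, HTSeq 0.12.4, FastQC and the mm10 build. The deposited values were the authors' raw counts per gene. The annotation release and strand setting are not given in the sources used here. Rows that name no gene held 14.2% to 16.4% of counts and were left out. The samples are described as independent RNA samples, with no word on embryos or litters, so the p-values measure only the spread between these samples. Y-linked counts were 0 in replicate 1 and not in the others, and *Xist* was at 671 CPM in replicate 1 and under 1 CPM in the others. By these genes replicate 1 was female and replicates 2 and 3 were male, so replicate 1 held tissue of other embryos. Sex cannot be told apart from other differences of replicate 1. Whether replicates 2 and 3 came from different embryos is not shown.

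Identifiers were matched to GENCODE M21 (GRCm38), where 260 had no row. CPM used TMM factors from edgeR 4.0.16. Exonic length was that of all transcripts merged. Counts were compared across libraries with a chi-square test per gene, for genes whose mean count reached 10. A test between conditions was not possible with 1 group. The test was checked on simulated counts. Alternatives were DESeq2 1.42.0 size factors, other scalings, filters, folds and lengths, and leaving out each replicate. Software was pandas 2.3.3, scipy 1.17.1 and numpy 2.4.6 under Python 3.11.15, beside R 4.3.3. Members and lists were chosen with earlier results of these data known. Genes given in detail were the 3 highest per length in each role, members with a range of at least 2-fold, 7 feedback genes, and the highest and lowest per length of each further list. Other members, *Tle5*, *Ptk7* and *Vangl2* were named after their values were seen.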

Additional observations from a re-analysis of the deposited data

How the results depend on the processing

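The number of WNT members with a range of at least 2-fold, 23 over the 3 libraries, depended most on the settings. It was 36 at 1.5-fold and 9 at 3-fold. Such limits move the share of all genes too, so these counts say nothing particular to the members. The number was 13 after 0.5 CPM was added and the median of each length bin taken off. The pseudocount alone, an alternative picked after seeing the data, gave 16. Without 1 replicate the number ran from 4 (7.24% of all genes, without replicate 3) to 21 (31.2%, without replicate 2). The median CPM of the members moved from 22.4 to 24.8 when at least 10 counts in every library were asked for, and from 21.5 to 24.5 over the fits without 1 replicate. The summed level of the *Fzd* genes was 131 CPM/kb and ran from 125 to 139. Of 42 single genes, 4 moved by over 1.5 times, each without replicate 3: *Rspo1* from 11.3 to 5.00 CPM, *Dkk2* from 4.73 to 3.01, *Wnt8b* from 0.347 to 0.0435 and *Sfrp4* from 0.275 to 0.166. No paired analysis was possible because there is 1 group. With 3 libraries of 1 genotype, no value bears on a difference from wild type.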
